A study of Homo sapiens with 24 samples.

Results

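The keratin gene clusters of UMUC1 cells, an established human bladder cancer line, were examined in lists of peaks and broad regions from chromatin immunoprecipitation sequencing (ChIP-seq). The type II cluster was the 680 kb from 52560 to 53240 kb of chromosome 12, and the type I cluster was the 980 kb from 38805 to 39785 kb of chromosome 17, both on hg19. KRT8 and KRT18, which lie just beyond the type II stretch, were left out. Every listed peak or region that shared at least 1 bp with either stretch was a member, with no measured value used to choose it. There were 1655 members among 1483402 listed regions (0.112%), 763 in the type II and 892 in the type I cluster. Both stretches were cut into bins of 20 kb, 34 in the type II and 49 in the type I cluster.

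Each of 3 UMUC1 lines stably carried a pSIN-puro construct. The WT line expressed wild-type UTX, the HEAA line expressed UTX with the substitutions H1146A and E1148A, and the EV line held the vector alone. Whether a line is a clone or a pool is not given. Cells of all lines were harvested 3 days after plating. H3K27ac was measured in 2 numbered libraries of each line, while UTX, MLL4, H3K4me1 and H3K27me3 had a single list each, so the values of those antibodies have no replicate error and no test. No list gives the expression of a gene, so the identity of the cells could not be checked against markers.

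Keratins are the intermediate filament proteins of epithelial cells, and each filament pairs an acidic type I with a basic type II chain. The type II genes form 1 array, with KRT18 as the type I gene among them, and the other type I genes form the second array together with the keratin-associated protein (KRTAP) genes of the hair shaft. KRT7, KRT19 and KRT20 are keratins of the urothelium, KRT5 and KRT14 mark its basal cells, KRT13 marks intermediate cells, and KRT6A, KRT16 and KRT17 are stress and basal keratins. UTX, also named KDM6A, is an H3K27 demethylase that works with the H3K4 methyltransferase MLL4. H3K27ac marks active enhancers and promoters, H3K4me1 marks enhancers whether active or not, and H3K27me3 is the repressive mark that Polycomb complexes write.

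In the RefSeq gene order of assembly GRCh38.p14, the type II cluster held 25 protein-coding keratin genes, and the type I cluster held 28 keratin and 34 KRTAP genes. The type II order starts with KRT80 and KRT7, runs through the hair keratins KRT86 to KRT82, KRT75, the KRT6 genes, KRT5, the inner root sheath keratins KRT71 to KRT73, and KRT2, KRT1 and KRT77, and ends with KRT76, KRT3, KRT4, KRT79 and KRT78. The type I order starts with KRT222, KRT24 and KRT25, passes KRT10, KRT12, KRT20 and KRT23, the KRTAP genes and the hair keratins KRT33A to KRT36, and ends with KRT13, KRT15, KRT19, KRT9, KRT14, KRT16 and KRT17. A gene table of hg19 was not used here, so bins and peaks were placed along this order only by the end of the cluster at which they lie, and none was assigned to a gene.

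The promoters of the genes were searched for a TATA box, which the choice of members did not use. The letters TATAAA were searched on the gene's own strand, with all letters within the stretch 45 to 16 bases before the start. They were found in 3 of 13 type II keratin promoters (23.1%), 12 of 20 type I keratin promoters (60%) and 16 of 33 KRTAP promoters (48.5%). Among promoters of all genes they were found in 719 of 27305 (2.63%). On either strand within 250 bases before the start, TATAAA was in 46.2% of the type II, 70% of the type I and 87.9% of the KRTAP promoters, against 11.1% of all. The 60 bases before the start of a pair of genes of each kind, the first matches along each cluster, are shown with the matched letters in capitals, so that promoters of both arrays can be read beside each other. RefSeq promoters were at hand for 13 of the 25 type II, 20 of the 28 type I and 33 of the 34 KRTAP genes. A match is a description of the letters and no site of any factor, and these promoters were not placed against the peaks.
KRT71, GRCh38.p14 chr12:52553146-52553205, minus strand: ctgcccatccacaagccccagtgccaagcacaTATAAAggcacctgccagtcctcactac
KRT76, GRCh38.p14 chr12:52777346-52777405, minus strand: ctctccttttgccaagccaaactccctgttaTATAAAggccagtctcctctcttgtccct
KRT24, GRCh38.p14 chr17:40703753-40703812, minus strand: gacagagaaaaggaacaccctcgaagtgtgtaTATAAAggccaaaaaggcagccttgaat
KRT25, GRCh38.p14 chr17:40755332-40755391, minus strand: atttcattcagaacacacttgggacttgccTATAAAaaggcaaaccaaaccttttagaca
KRTAP1-5, GRCh38.p14 chr17:41027209-41027268, minus strand: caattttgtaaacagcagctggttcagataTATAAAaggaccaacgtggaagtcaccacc
KRTAP1-3, GRCh38.p14 chr17:41034875-41034934, minus strand: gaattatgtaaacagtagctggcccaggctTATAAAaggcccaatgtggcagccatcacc

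H3K27ac in the type II cluster was concentrated at the end that begins with KRT80 and KRT7. The first 6 bins, from 52560 to 52680 kb, made up 17.6% of the type II bins and held 58.9% of the H3K27ac-covered length averaged over the 6 libraries. They were covered over 72.4% and 43.7% of their bases in WT replicates 1 and 2, 73.5% and 40.1% in HEAA, and 68.8% and 53.0% in EV. The rest of the cluster was covered over 9.09% and 5.40% in WT, 11.9% and 5.29% in HEAA, and 11.7% and 9.19% in EV. All 6 libraries thus had a dense end and a sparse remainder.

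The bin from 52620 to 52640 kb was the most covered of the type II cluster, with a mean of 17.9 kb of its 20 kb. Its covered length was 19.5 and 15.8 kb in WT, 19.6 and 15.1 kb in HEAA, and 19.2 and 18.2 kb in EV. The bins next in order were 52600 to 52620 kb (mean 14.7 kb), 52580 to 52600 kb (14.3 kb), 52560 to 52580 kb (9.51 kb) and, away from the dense end, 52900 to 52920 kb (9.22 kb). The widest single region of the cluster lay over this dense end: chr12:52605974-52634364 in WT replicate 1, with 28391 bp, ranked 6 by width of 63557 regions in its list. In HEAA replicate 1 a region of 26822 bp at chr12:52604552-52631373 ranked 11 of 72700, and in EV replicate 1 the widest region measured 12990 bp at chr12:52605820-52618809. In the replicate 2 lists the widest type II regions measured 10900 bp in WT, 11138 bp in HEAA and 11883 bp in EV.

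In the type I cluster the dense stretch was at the other end, where the order closes with KRT13, KRT15, KRT19, KRT9, KRT14, KRT16 and KRT17. The last 7 bins, from 39645 to 39785 kb, made up 14.3% of the bins and held 43.1% of the mean H3K27ac length. They were covered over 41.8% and 31.4% in WT, 46.2% and 27.7% in HEAA, and 44.0% and 35.8% in EV. The remainder was covered over 10.3% and 4.70% in WT, 12.2% and 3.98% in HEAA, and 10.1% and 8.65% in EV. The bins with the highest means were 39765 to 39785 kb (13.3 kb), 39645 to 39665 kb (12.9 kb), 39665 to 39685 kb (12.3 kb), 39685 to 39705 kb (8.47 kb) and 39065 to 39085 kb (8.41 kb). Not all of the last 7 bins were dense: those that start at 39705, 39725 and 39745 kb averaged 2.25, 3.49 and 0.250 kb. The widest type I regions of the replicate 1 lists covered 15246 bp in WT, 18894 bp in HEAA and 18785 bp in EV, all beginning between chr17:39649216 and chr17:39650094. In the replicate 2 lists they began between chr17:39675334 and chr17:39675456 and measured 12103, 12227 and 12077 bp in WT, HEAA and EV.

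**Figure D1:**
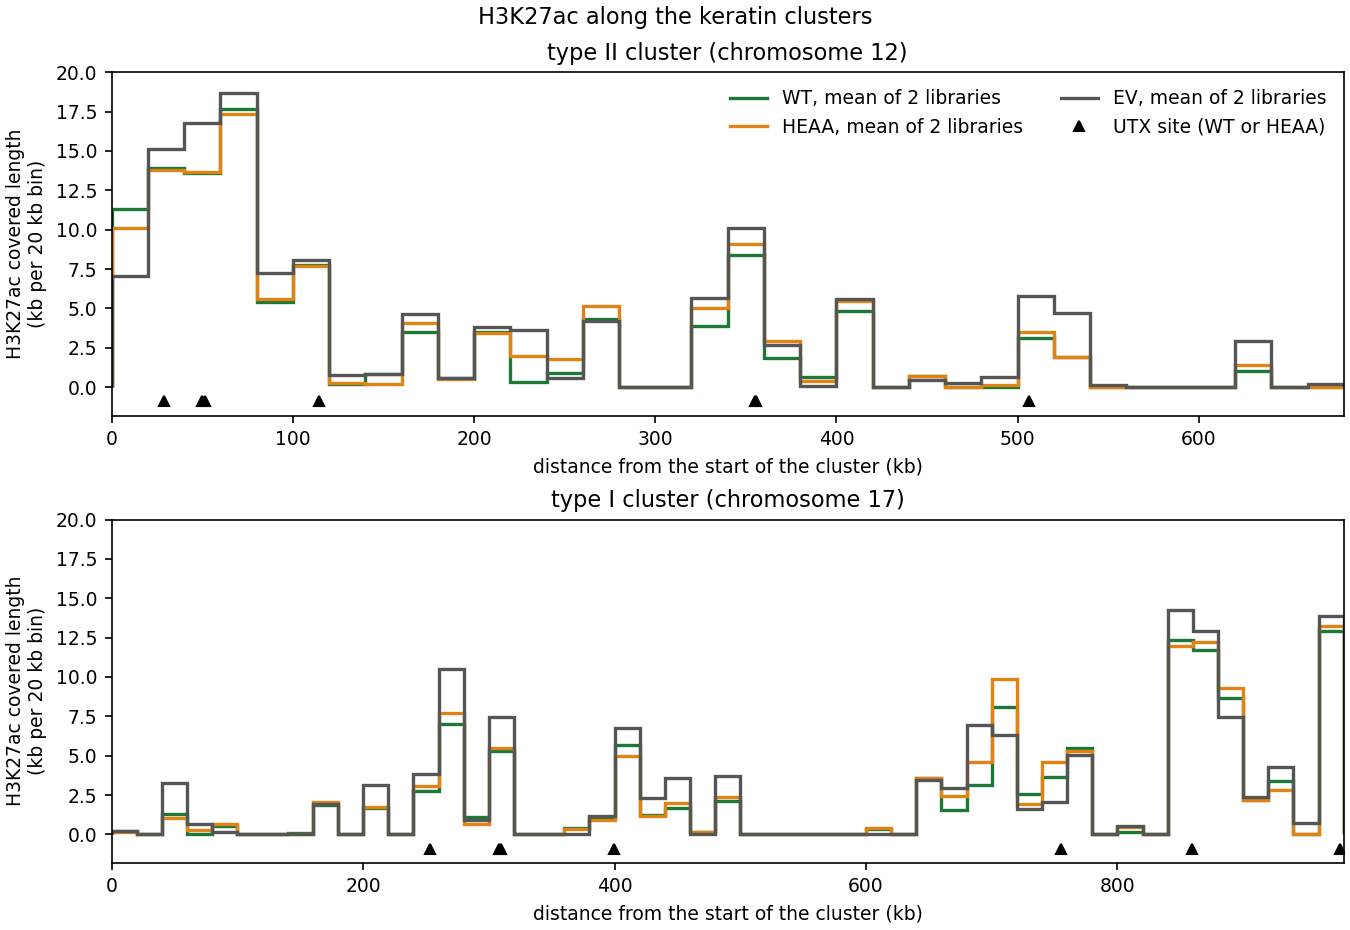
H3K27ac-covered length (kb per 20 kb bin, vertical axis) against the distance from the start of each cluster (kb, horizontal axis); lines are means of the 2 libraries of WT, HEAA and EV, and triangles mark UTX sites. The lines follow each other along both clusters, with the highest mean among the first 6 bins of the type II and the last 7 bins of the type I cluster.

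The opposite ends held little of the H3K27ac of their clusters. The last 7 type II bins, from 53100 to 53240 kb, where the order holds KRT76 to KRT78, had 1.58% of the cluster's mean H3K27ac length. They were covered over 1.44% and 0% in WT, 2.00% and 0% in HEAA, and 2.82% and 1.82% in EV. The first 6 type I bins, from 38805 to 38925 kb, beginning with KRT222 and KRT24, had 2.30% of the type I length. They were covered over 3.33% and 0.0308% in WT, 3.56% and 0.035% in HEAA, and 4.01% and 3.14% in EV. These type I shares were above those over all bins in WT replicate 1 and both EV libraries, and below them in the other libraries. Regions of all 6 libraries were present in 16 of 34 type II bins and 22 of 49 type I bins, and no library had a region in 7 and 15 bins. The longest runs of such empty bins were 39305 to 39405 kb in the type I cluster (100 kb) and 53120 to 53180 kb in the type II cluster (60 kb). Runs of 40 kb lay at 52840 to 52880 kb, 38905 to 38945 kb and 39125 to 39165 kb.

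The empty runs differed in H3K27me3. The run at 53120 to 53180 kb had 15.7 kb in H3K27me3 regions in WT, 16.9 kb in HEAA and 11.3 kb in EV. The run at 38905 to 38945 kb had 6.17 kb in WT, 14.2 kb in HEAA and 13.6 kb in EV. The 100 kb run of the type I cluster had 0.651 kb in WT, 0.832 kb in HEAA and 1.99 kb in EV, and the remaining 40 kb runs had none in any line. Across bins, mean H3K27ac and mean H3K4me1 length were ranked alike (Spearman's rho 0.942 over 34 type II bins and 0.952 over 49 type I bins), while H3K27ac and H3K27me3 were ranked in opposite order (rho −0.499 and −0.535). These coefficients are descriptions: bins of 1 cluster are neighbours and share their libraries and depth.

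The clusters were then compared with each other within each library. H3K27ac covered 20.3% and 12.2% of the type II cluster in WT, 22.8% and 11.4% in HEAA, and 21.8% and 16.9% in EV. It covered 14.8% and 8.51% of the type I cluster in WT, 17.1% and 7.37% in HEAA, and 15.0% and 12.5% in EV. The type II share was the higher one in 6 of 6 libraries, by 5.02 ± 1.20 percentage points (SD, n = 6; lowest 3.64, highest 6.85). An exact two-sided permutation test by sign flips gave p = 0.03125, the smallest value its 64 arrangements allow, and 0.156 after Benjamini-Hochberg adjustment over the 5 planned H3K27ac tests of coverage, which is above 0.05. As a description, the mean difference was −3.77 points without the first 6 type II bins, and 0.445 points without those bins and the last 7 type I bins. The bins to remove were picked for their high H3K27ac in the same libraries, which fixes the direction of the first shift, so neither value is a test.

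H3K27ac was denser again beyond the sparse end of the type II cluster. The 120 kb that follow, from 53240 to 53360 kb, are on the side where KRT8 and KRT18 lie, and may contain them. They were covered over 30.01% and 28.9% in WT, 38.5% and 26.7% in HEAA, and 33.6% and 37.0% in EV. The mean of these 120 kb, 32.5%, was 14.9 points above that of the type II cluster, with all 6 libraries in that direction (9.75 to 20.1 points). This stretch was chosen after its values had been seen, so the difference is a description and was not tested. It had no H3K27me3 region in any line. In the clusters themselves, the covered share was 4.63 to 7.51 times that over all chromosomes for H3K27ac, 3.47 to 6.48 times for H3K4me1, and 0.294 to 0.662 times for H3K27me3.

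**Figure D2:**
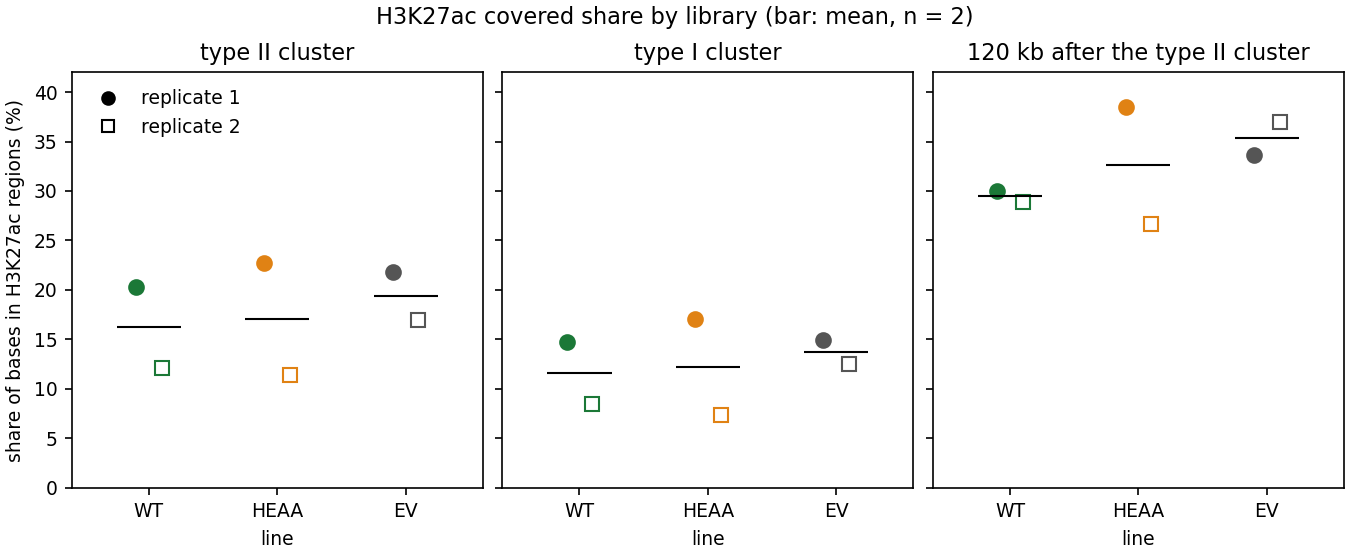
Share of bases in H3K27ac regions (percent, vertical axis) by line (horizontal axis) for the type II cluster, the type I cluster and the 120 kb after the type II cluster; filled circles are replicate 1, open squares replicate 2, and bars the mean of 2 libraries. The lines overlap in both clusters, where WT spans 12.2% to 20.3% and EV 16.9% to 21.8% of the type II cluster.

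Between lines, the unscaled H3K27ac share of the clusters did not differ by more than the spread between libraries. The type II share averaged 16.2 ± 5.73% in WT, 17.1 ± 8.01% in HEAA and 19.4 ± 3.45% in EV (SD, n = 2 each), and the type I share averaged 11.6 ± 4.42%, 12.2 ± 6.86% and 13.7 ± 1.71% in WT, HEAA and EV. The 4 libraries of the WT and HEAA lines were 2.71 points below the 2 EV libraries in the type II cluster (exact two-sided permutation test, p = 0.533) and 1.81 points below in the type I cluster (exact p = 0.667). With 15 arrangements these tests cannot go below 0.0667, and WT against HEAA (differences of −0.897 and −0.578 points, exact p = 1 in each) cannot go below 0.333. The replicate 2 lists were shorter: over all bins, H3K27ac covered 3.16% in WT, 3.64% in HEAA and 2.90% in EV in replicate 1, against 1.82%, 1.59% and 2.36% in replicate 2.
The difference of the WT and HEAA lines from EV was −0.286 points in replicate 1 and −5.13 points in replicate 2 for the type II cluster. For the type I cluster it was 0.968 points in replicate 1 and −4.59 points in replicate 2. The direction of the unscaled type I difference was thus not shared by the replicates. Over all bins, too, the difference was above 0 in replicate 1 (0.501 points) and below 0 in replicate 2 (−0.654 points). Each share was also divided by that of the same list over all bins. The type I ratios were 4.67 and 4.67 in WT, 4.69 and 4.63 in HEAA, and 5.15 and 5.31 in EV. All 4 WT and HEAA libraries were then below both EV libraries (difference −0.565, exact permutation p = 0.0667, the smallest possible). The type II difference was −0.712 (exact permutation p = 0.2), with HEAA replicate 2 (7.19) above EV replicate 2 (7.17). Whether libraries 1 and 2 of a line were grown apart is not in the labels, so these p-values measure only their spread, which may be technical.

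The same comparison was made by bin. A bin was counted where at least 1 library covered 2 kb, which 18 type II and 23 type I bins did. None of these 41 bins was higher in all 4 WT and HEAA libraries than in both EV libraries, against 2.83% of 21113 such bins of all chromosomes. In 4 of 41 bins all 4 WT and HEAA libraries were lower than both EV libraries, against 6.74% of all, a share not far from that background. Compared within each replicate number, with WT and HEAA both on the same side of EV in replicate 1 and in replicate 2, 5 of 41 bins were higher (7.81% of all) and 10 of 41 lower (18.4% of all). In replicate 1 alone 14 of 41 bins were higher (56.3% of all) and 10 lower (20.6% of all), and in replicate 2 alone 4 of 36 were higher (6.81% of all) and 29 lower (80.2% of all). The replicates thus differed in direction over the bins of all chromosomes as well.

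The 4 bins were 2 neighbours near the far end of the type II cluster and 2 type I bins. At 53080 to 53100 kb H3K27ac covered 1.98 and 1.87 kb in WT, 2.24 and 1.56 kb in HEAA, and 3.73 and 5.76 kb in EV. At 53060 to 53080 kb it covered 2.30 and 3.98 kb in WT, 3.59 and 3.39 kb in HEAA, and 4.50 and 7.10 kb in EV. The group means of these neighbours differed by −2.83 and −2.49 kb. At 38845 to 38865 kb it covered 2.56 and 0 kb in WT, 2.14 and 0 kb in HEAA, and 3.88 and 2.69 kb in EV, and at 39705 to 39725 kb the difference was −0.150 kb. In the mean over libraries, the WT and HEAA lines were below EV in 15 of 18 type II bins (83.3%) and 16 of 23 type I bins (69.6%), against 56.1% of the counted bins of all chromosomes.

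When the H3K27ac regions of all 6 libraries were joined, the type II cluster held 66 regions and the type I cluster 79. Regions of all 6 libraries numbered 17 in the type II (25.8%) and 25 in the type I cluster (31.6%), against 31.8% of joined regions on all chromosomes. None was present in all 4 WT and HEAA libraries and absent from both EV libraries, a pattern of 0.541% of 81739 joined regions on all chromosomes. The reverse, present in both EV libraries alone, was seen for 4 type II regions and 1 type I region, against 0.91% of all. They were chr12:52698343-52699346, chr12:52926195-52927048, chr12:53083280-53084164, chr12:53084396-53085176 and chr17:38863805-38864973. The pair that begins at chr12:53083280 and chr12:53084396 lies in the bin with the largest H3K27ac separation between the lines. Regions of all 3 replicate 1 libraries and no replicate 2 library numbered 3 in the type II and 8 in the type I cluster. The share of this last pattern over all chromosomes was not computed.

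UTX was found at 14 sites in the clusters, 7 in each, when overlapping peaks of the lines were joined. WT had 13 UTX peaks in the clusters (of 2566), HEAA had 11 (of 2855) and EV had 0 (of 31). Peaks of both WT and HEAA were present at 10 sites, of WT alone at 3 and of HEAA alone at 1. MLL4 had 0 peaks in WT (of 898), 4 in HEAA (of 1125) and 0 in EV (of 133), and each of the 4 lay on a UTX site. At 13 of the 14 sites all 6 H3K27ac libraries had a region. H3K4me1 regions covered part of 12 sites in WT, 12 in HEAA and 14 in EV, and every line had one within 1 kb of each site. No line had an H3K27me3 region on a site or within 1 kb of one. Fold enrichments of peaks are the authors' values. Folds of several lists are given side by side below, but lists of unknown depth may not share a scale. Peaks are therefore compared by fold or rank only within a list.

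In the type II cluster 4 of the 7 sites lay in the dense first bins. The site with the largest extent there was chr12:52674113-52674951. Its UTX peak had a fold enrichment of 8.15 in WT (rank 192 of 2566) and 9.61 in HEAA (rank 85 of 2855), and it ranked 3 by width in both lists, with 814 bp in WT and 838 bp in HEAA. MLL4 had a peak on it in HEAA, with fold 5.50 (rank 848 of 1125). The H3K27ac region over it had fold 18.2 and 20.5 in WT, 13.6 and 16.1 in HEAA, and 14.5 and 28.5 in EV, within each list the highest fold at any of the 14 sites, except in HEAA replicate 1.

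The neighbouring sites chr12:52609423-52609747 and chr12:52611145-52611419 lay in the widest type II H3K27ac region of each replicate 1 list. UTX fold was 6.15 in WT and 5.34 in HEAA at the first of them, and 4.71 in WT and 7.85 in HEAA at the second, which also had an MLL4 peak in HEAA (fold 8.09, rank 196 of 1125). Their order by fold was therefore not the same in the WT and HEAA lists. The site chr12:52588894-52589060 had a peak in WT alone, with fold 3.89 (rank 2205). Midway along the cluster, in the bin from 52900 to 52920 kb, chr12:52914997-52915369 had UTX fold 4.20 in WT and 4.67 in HEAA, and chr12:52915552-52915914 had a peak in HEAA alone, with fold 5.64.

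The seventh type II site, chr12:53066041-53066530, had a UTX fold of 7.37 in WT (rank 316 of 2566) and 13.1 in HEAA (rank 8 of 2855), the highest HEAA value of either cluster. MLL4 had a peak on it in HEAA with fold 4.37, rank 1072 of 1125. It lies in one of the 2 neighbouring bins with less H3K27ac in the WT and HEAA lines. Its widest overlapping H3K27ac region measured 1003 and 2964 bp in WT, 1788 and 1745 bp in HEAA, and 2592 and 6372 bp in EV, and EV replicate 2 was the widest of the 6.

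H3K27me3 was listed beside that site in WT and HEAA. In the bin from 53060 to 53080 kb it covered 3.75 kb in WT, 2.30 kb in HEAA and 0 kb in EV. The nearest H3K27me3 region was 3.49 kb from the UTX site in WT, 4.53 kb in HEAA and 32.3 kb in EV. The widest type II H3K27me3 region of the WT list was here, chr12:53070021-53072698, with 2678 bp, fold 2.79 and a −log10 q of 1.82. The −log10 q of the WT and HEAA regions of this bin ranged from 1.08 to 2.72, so none is left at a minimum of 3. The 4 WT regions of this bin shared no base with any of the 6 H3K27ac lists, and the 4 HEAA regions shared 0.332 kb with EV replicate 2 and none with the other 5.

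In the type I cluster the highest UTX fold was at chr17:39113123-39113472, with 10.0 in WT (rank 51) and 7.44 in HEAA (rank 368). Its neighbour chr17:39114376-39114643 had 7.48 in WT and 6.67 in HEAA. Next to them along the order, chr17:39058315-39058644 had 6.41 in WT and 4.88 in HEAA. It was the 1 site without H3K27ac in all libraries. The nearest WT replicate 2 regions lay 29 bp from the WT peak and 1 bp from the HEAA peak. WT alone had peaks at chr17:39204764-39204986 (fold 4.24) and at chr17:39781925-39782201 (fold 6.06), which is close to the end that carries KRT17.

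The remaining type I sites lay toward the dense end. At chr17:39560301-39560637 UTX fold was 5.59 in WT and 6.30 in HEAA. At chr17:39663809-39664151 it was 4.84 in WT and 5.43 in HEAA, with an MLL4 peak in HEAA of fold 5.03 (rank 957 of 1125). This last site lay within the widest type I H3K27ac region of each replicate 1 list. No type I MLL4 peak was listed elsewhere.

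H3K27me3 coverage of WT and HEAA lay above EV in the type II cluster and below EV in the type I cluster when all listed regions were counted, and WT lay below HEAA in both. In the type II cluster it was 25.0 kb in WT, 26.8 kb in HEAA and 18.6 kb in EV, ratios of 1.34 for WT over EV and 1.44 for HEAA over EV. In the type I cluster it was 16.02 kb in WT, 30.1 kb in HEAA and 45.7 kb in EV, ratios of 0.350 and 0.659. Over all bins the ratios were 0.704 for WT and 1.05 for HEAA. The type I ratios were thus below, and the type II ratios above, those of all bins in both lines. With 1 list per line and a shared EV list, neither the ratios nor their difference between clusters could be tested.

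These regions were weak ones. The largest −log10 q of an H3K27me3 region in either cluster was between 3.38 and 4.65 across the lines and clusters, where each list reached 20.4 to 26.5. With a −log10 q of at least 3, only 2 type II regions per line remained, covering 0.840 kb in WT, 5.51 kb in HEAA and 5.997 kb in EV, and the type II ratios turned to 0.140 for WT and 0.918 for HEAA. The type I ratios were then 0.321 and 0.489, so EV was highest in both clusters. The direction of the type II ratios thus rests on regions with q values near the caller's limit.

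By bin, the type II H3K27me3 lay toward the end away from KRT80 and KRT7, in bins with and without H3K27ac. All type II regions of WT and HEAA were between 52980 and 53220 kb, and those of EV too, apart from the bin at 52820 to 52840 kb, which had 0 kb in WT, 0 kb in HEAA and 3.61 kb in EV. The most covered bin, 53120 to 53140 kb, had 8.51 kb in WT, 9.65 kb in HEAA and 8.55 kb in EV. Its neighbour at 53140 to 53160 kb had 4.60 kb in WT, 5.27 kb in HEAA and 1.36 kb in EV. At 53200 to 53220 kb the values were 1.64 kb in WT, 2.73 kb in HEAA and 0.581 kb in EV. Of the 12 type II bins with a region in WT or EV, WT was higher in 8 (66.7%, against 27.0% of all such bins) and lower in 4. Of the 11 with a region in HEAA or EV, HEAA was higher in 8 (72.7%, against 53.8% of all) and lower in 3.

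In the type I cluster nearly every bin with H3K27me3 had less of it in the UTX lines. Of 17 bins with a region in WT or EV, WT was lower in 16 (94.1%, against 73.0% of all such bins), and of 16 with a region in HEAA or EV, HEAA was lower in 15 (93.8%, against 46.2% of all). Coverage was mainly at the start of the order. The bin at 38905 to 38925 kb had 2.52 kb in WT, 6.53 kb in HEAA and 6.97 kb in EV, and that at 38925 to 38945 kb had 3.65 kb in WT, 7.70 kb in HEAA and 6.67 kb in EV. At 38825 to 38845 kb the lengths were 2.44 kb in WT, 3.80 kb in HEAA and 5.63 kb in EV, and at 38945 to 38965 kb they were 0 kb in WT, 1.67 kb in HEAA and 3.49 kb in EV. HEAA was within 1.03 kb of EV in the first pair of these bins and between WT and EV in the second pair.
Farther along, the bin at 39405 to 39425 kb had 2.16 kb in WT, 2.06 kb in HEAA and 5.57 kb in EV. Toward KRT13 to KRT17, H3K27me3 was listed in EV alone: 0.902 kb at 39605, 1.37 kb at 39625, 1.34 kb at 39705 and 0.934 kb at 39725 kb, each over the 20 kb bin that starts there, against 0 kb in WT and HEAA.

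Counted by a 2-fold difference in bins where either list covered 2 kb, WT was higher than EV in 2 of 12 bins, both type II (6.2% of all such bins), and lower in 6 of 12, of which 5 were type I (34.8% of all). HEAA was higher than EV in 3 of 13 bins, all type II (17.5% of all), and lower in 3 of 13, of which 2 were type I (14% of all). The bins at 53060 to 53080 kb and 53140 to 53160 kb were higher past 2-fold in both lines. Lower past 2-fold in both lines were the bins at 52820 to 52840 kb, 38945 to 38965 kb and 39405 to 39425 kb. With so few bins, a single one moves these shares by several points.

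**Figure D3:**
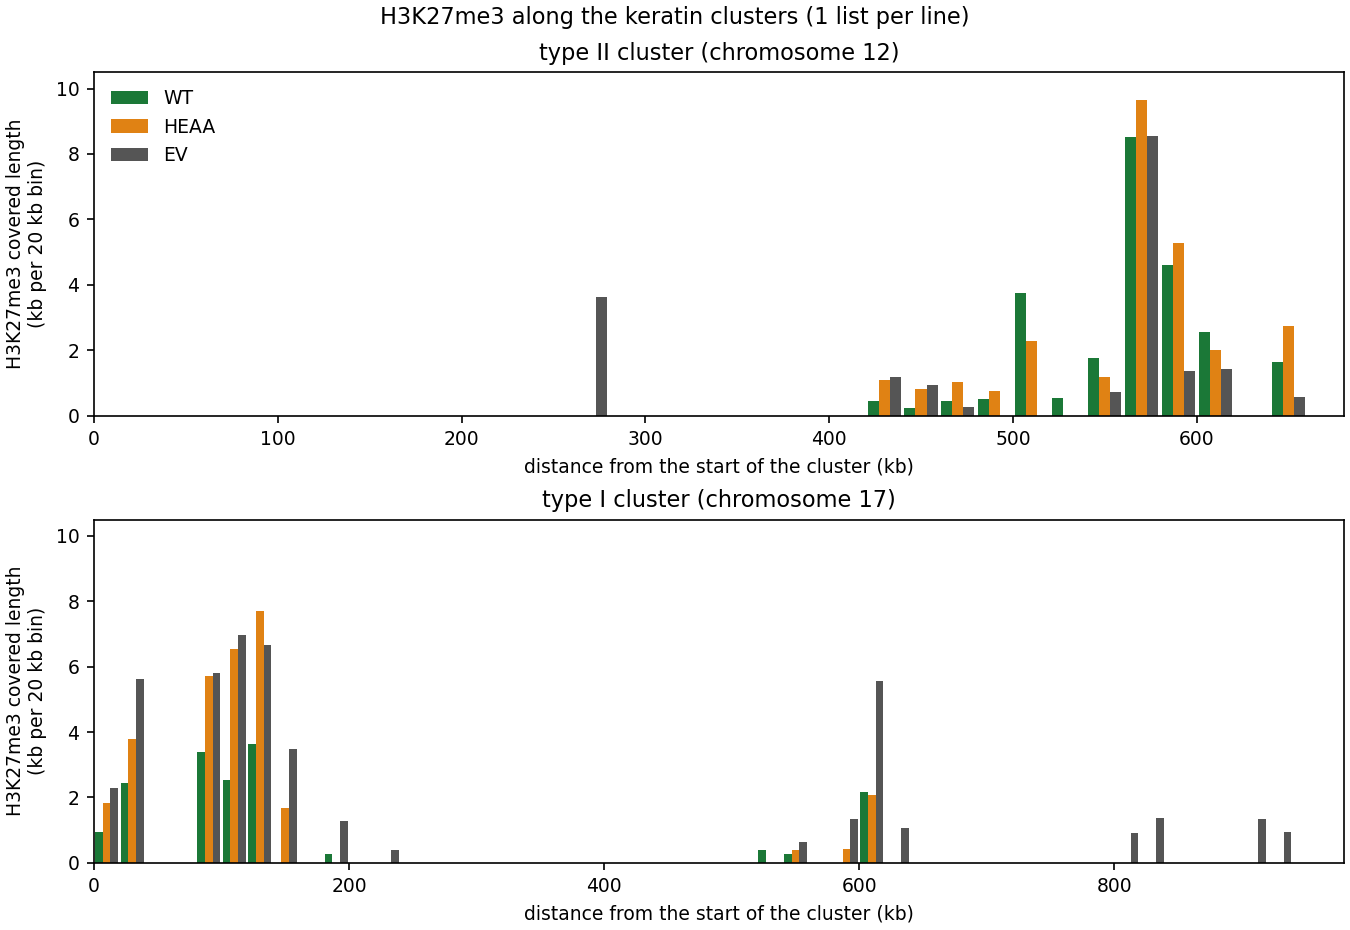
H3K27me3-covered length (kb per 20 kb bin, vertical axis) against the distance from the start of each cluster (kb, horizontal axis); bars are the single lists of WT, HEAA and EV. Type II coverage sits at the far end, with 4.60 kb in WT, 5.27 kb in HEAA and 1.36 kb in EV in the bin at 53140 kb, and type I coverage is mainly near the start, with 2.52 kb in WT, 6.53 kb in HEAA and 6.97 kb in EV at 38905 kb.

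H3K4me1 was the most extensive mark. It covered 196 kb of the type II cluster in WT, 216 kb in HEAA and 228 kb in EV, and 201 kb, 209 kb and 212 kb of the type I cluster in WT, HEAA and EV. The ratios to EV were 0.857 for WT and 0.948 for HEAA in the type II cluster and 0.949 and 0.986 in the type I cluster, whereas over all bins they were 1.14 for WT and 1.18 for HEAA. WT was lower than EV in 26 of 33 type II bins with a region (78.8%), against 37.2% of all such bins. HEAA was lower in 19 of 34 (55.9%), against 32.6% of all. With 1 list per line these differences from the other bins could not be tested.

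The largest H3K4me1 difference was at 52780 to 52800 kb, with 4.97 kb in WT, 6.24 kb in HEAA and 11.1 kb in EV. H3K27ac in that bin covered 0.606 and 0 kb in WT, 3.98 and 0 kb in HEAA, and 5.32 and 1.91 kb in EV, with HEAA replicate 1 above EV replicate 2. At 53080 to 53100 kb, the bin with the largest H3K27ac separation, H3K4me1 covered 5.45 kb in WT, 5.89 kb in HEAA and 9.12 kb in EV. At 53180 to 53200 kb it covered 6.30 kb in WT, 7.30 kb in HEAA and 9.39 kb in EV. All these bins had the order WT, HEAA, EV, lowest first.

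By the 2-fold rule, WT was higher than EV in 1 of 57 bins (12.3% of all such bins) and lower in 3 of 57 (3.19% of all), and HEAA was higher in 1 of 57 (12.7% of all) and lower in 0 of 57 (2.05% of all). The WT bins were 39165 to 39185 kb, with 4.16 kb in WT, 3.83 kb in HEAA and 2.01 kb in EV, and, in the other direction, 52680 to 52700 kb, 52780 to 52800 kb and 53100 to 53120 kb. The HEAA bin was 52840 to 52860 kb, with 2.43 kb in HEAA and 1.06 kb in EV. At the dense type I end, the bin from 39645 to 39665 kb had the largest type I difference in favour of WT, 2.55 kb over EV.

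**Figure D4:**
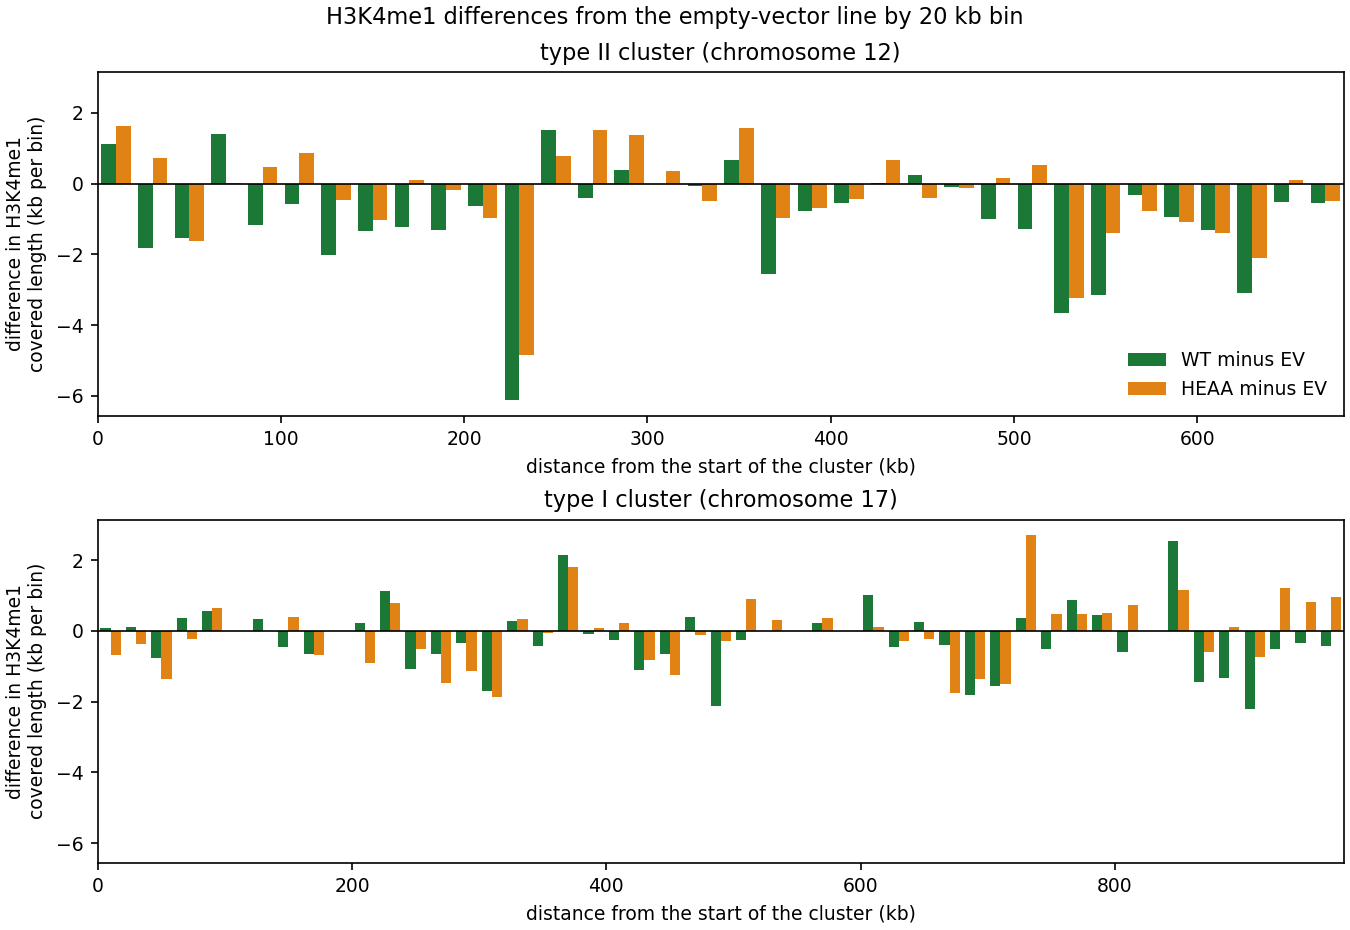
Difference in H3K4me1-covered length from EV (kb per 20 kb bin, vertical axis) against the distance from the start of each cluster (kb, horizontal axis); bars are WT minus EV and HEAA minus EV, each from single lists. Bars below 0 prevail for WT in the type II cluster, where 26 of 33 bins are lower, with the lowest at −6.12 kb for WT and −4.85 kb for HEAA.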

How the data were processed

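Peak lists from 18 of 24 ChIP-seq samples were analysed; 6 inputs were not used here. MACS2 and the builds hg19 and GRCh37 are named per the submitters' processing notes; no version, aligner or read filter is given, and the depth of every list is unknown. Per the labels' protocols, UTX and MLL4 chromatin was treated with micrococcal nuclease and sonicated, and histone chromatin was sonicated. The deposited lists give for each region a fold enrichment (a linear ratio), −log10 p-values, −log10 q-values, a score and, in the UTX and MLL4 lists, a summit offset, all from the authors' peak caller. Score and p were not used. The UTX peak names refer to merging of something that no source specifies.

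Regions were intersected with each cluster (at least 1 bp) and their covered length summed per 20 kb bin. An absent region is one below the caller's threshold, not an absence of signal. Calculations used Python 3.11.15, NumPy 2.4.6, pandas 2.3.3 and SciPy 1.17.1, and figures matplotlib 3.10.9; the code was tested on simulated data. Tests on H3K27ac shares were exact two-sided permutation tests with the library as the unit. Named were all UTX and MLL4 peaks, the 5 bins per cluster highest in H3K27ac, bins whose lines did not overlap, the bins with the largest differences per mark, the widest regions and the longest runs without H3K27ac. Members, gene lists and this rule were chosen with earlier results of these data known. Alternatives changed bin size, the minimum length of 2 kb, the fold of 2, q, list length and replicates. Promoter letters are RefSeq's (GRCh38.p14).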

Additional observations from a re-analysis of the deposited data

Results flagged for a closer look

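Over all listed regions, H3K27me3 coverage differed from EV in opposite directions in the 2 clusters, in both UTX lines. For WT over EV the ratio of covered length was 1.34 in the type II and 0.350 in the type I cluster. For HEAA over EV it was 1.44 in the type II and 0.659 in the type I cluster. At a −log10 q of at least 3 the opposition was gone: the type II ratios were 0.140 for WT and 0.918 for HEAA, and the type I ratios 0.321 and 0.489, from 2 or 3 regions per line and cluster. Each ratio comes from 1 list per line and both share the EV list, and the difference between clusters was not tested.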

How the results depend on the processing

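Of 113 alternative values, 77 kept their direction and call or stayed within 1.5 times, 25 moved, 7 reversed and 4 lost their call; the causes were not tested beyond what each alternative removes. Reversed in direction were WT against HEAA in the type II cluster without replicate 1 (0.720 points, against −2.51 without replicate 2) and in the type I cluster without replicate 1 (1.15, against −2.30 without replicate 2) and scaled to each list's covered share (0.00944), the WT and HEAA lines against EV in the type I cluster without replicate 2 (0.968, against −4.59 without replicate 1), the type II against type I difference without the first 6 type II bins (−3.77), and the type II H3K27me3 ratios at a −log10 q of at least 3 (0.140 for WT, 0.918 for HEAA). The cluster difference lay between 4.03 and 6.01 points without either replicate (exact p = 0.25, the smallest for 3 libraries), was 5.02 with the replicate block, where 2 numbers cannot go below p = 0.5, and was 0.445 without both dense ends. For H3K27ac bins, the count higher in the WT and HEAA lines was 1 with 10 kb bins, 2 with equal-size lists, 5 with the replicate block and 4 to 14 without a replicate. The count lower was 10 with equal-size lists, 7 from 0.5 kb, 10 with the replicate block and 10 to 29 without a replicate.

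Deviations of same-numbered H3K27ac libraries from their line means correlated over 21113 bins (r = 0.807 for WT with HEAA, 0.646 for WT with EV, 0.622 for HEAA with EV); the labels name no shared batch, and with 2 numbers this is a hint of pairing only. Counting bins from 0.5 kb, H3K27me3 gave 6 higher and 16 lower for WT and 5 higher and 10 lower for HEAA. From 0.5 kb, H3K4me1 gave 3 higher and 5 lower for WT and 5 higher and 2 lower for HEAA. At 1.5-fold, H3K4me1 gave 2 higher and 8 lower for WT and 3 higher and 4 lower for HEAA. For HEAA it gave 2 higher and 2 lower in 10 kb bins and 2 lower with equal-size lists. Unknown depth limits all comparisons of coverage between lists.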

Other observations

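H3K27ac and H3K27me3 were also counted together by bin. Among bins with at least 0.5 kb of H3K27me3, those that also had at least 0.5 kb of H3K27ac in both libraries of the line numbered 2 of 8 in WT, 1 of 10 in HEAA and 1 of 8 in EV in the type II cluster. In the type I cluster they numbered 0 of 6 in WT, 0 of 7 in HEAA and 2 of 15 in EV. Over all chromosomes the shares were 3.92% in WT, 3.87% in HEAA and 6.75% in EV. The counts in the clusters are too small to place them above or below these shares.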
